A study of Mus musculus with 2 samples.

Results

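The Nuclear factor I (NFI) genes Nfia, Nfib, Nfic and Nfix were examined for R-loop peaks in mouse neural stem/progenitor cells (NSPCs). The 4 genes were taken by symbol from the GENCODE M1 annotation of the NCBI37/mm9 genome, which holds 37273 genes, 22367 of them protein-coding. Every peak that overlapped an NFI gene by at least 1 bp or lay within 10 kb of it was kept, which gave 26 of the 22132 peaks in the list. Of these, 24 overlapped a gene and 2 lay in the flanks only.

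An R-loop arises when a transcript pairs again with the DNA strand it was copied from and leaves the opposite strand single. G-rich transcripts are known to favour this. The NFI proteins are transcription factors that bind DNA as dimers through a conserved N-terminal DNA-binding and dimerization domain, while the C-terminal part of the proteins is shaped by alternative splicing. In the developing brain NFIA and NFIB promote the switch of neural progenitors from neurogenesis to gliogenesis, where NFIA acts together with SOX9, and NFIX is known for its role in the quiescence of neural stem cells. NFIC is best known from the formation of tooth roots.

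The cells were primary NSPCs isolated from the frontal brain of C57BL/6 mice at postnatal day 7. They received 0.5 µM aphidicolin, a DNA polymerase inhibitor that causes mild replication stress, for 48 h. This treatment stands in the methods and not in the labels. In DRIP-seq, the S9.6 antibody pulls down RNA:DNA hybrids from DNA cut with restriction enzymes, and the DNA obtained is sequenced. An input sample without antibody came from the same kind of cells, and only the DRIP sample has a file used here.

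The data are 1 list of peak positions. It carries no read count, signal or strand, so the depth behind a peak is unknown, the strand of a hybrid cannot be read from it, and all peaks weigh the same. The labels speak of biological replicates, but the list holds no replicate information. All values below therefore come without a replicate error and without a test, and differences between genes describe this list. Peaks are not expression levels, so the cell type could be compared with its markers only through peak positions: 8 of 12 NSPC marker genes held a peak, compared to 1 of 7 neuronal, 4 of 8 oligodendrocyte, 2 of 8 microglial and 2 of 8 endothelial marker genes that were matched and to 39.6% of all protein-coding genes. The NSPC markers with a peak included Sox2, Nes and Slc1a3, and those without were Pax6, Fabp7, Hes5 and Prom1. The gene lists were chosen with earlier results of these data known.

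The coding sequence that defines the family lies in the second exon. In the -001 transcript of each gene this exon is 532 bp long and wholly coding, and it encodes much of the DNA-binding domain. Its first 120 bp are printed on the coding strand of each gene from the mm9 sequence, because the same exon was inside a peak in only some of the genes. Capitals mark the 32 positions at which the 4 genes are not all the same. The stretches lie at chr4:97449773-97449892 (plus strand, Nfia), chr4:82144554-82144673 (minus strand, Nfib), chr10:80883424-80883543 (minus strand, Nfic) and chr8:87296095-87296214 (minus strand, Nfix).
Nfia: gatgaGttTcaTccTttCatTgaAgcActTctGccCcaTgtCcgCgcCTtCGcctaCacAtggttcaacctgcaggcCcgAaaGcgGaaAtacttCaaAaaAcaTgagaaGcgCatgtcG
Nfib: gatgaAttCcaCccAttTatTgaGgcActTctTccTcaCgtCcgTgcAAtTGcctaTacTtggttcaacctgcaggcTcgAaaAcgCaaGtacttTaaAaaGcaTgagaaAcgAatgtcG
Nfic: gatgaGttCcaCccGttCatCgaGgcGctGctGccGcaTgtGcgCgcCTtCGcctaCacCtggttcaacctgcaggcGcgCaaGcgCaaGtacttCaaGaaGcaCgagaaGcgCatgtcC
Nfix: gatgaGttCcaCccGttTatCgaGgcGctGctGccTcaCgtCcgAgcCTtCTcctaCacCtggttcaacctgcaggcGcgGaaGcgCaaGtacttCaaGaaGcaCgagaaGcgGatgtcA
Over the whole exon 351 of 532 bp (66.0%) were the same in all 4 genes. Nfic and Nfix were the closest pair with 82.0% identity, and Nfia and Nfic the most distant with 75.8%. The exon was wholly inside an R-loop peak in Nfib and Nfix. In Nfia it lay 3222 bp and in Nfic 11194 bp from the nearest peak, with no base covered. As background, 9.08% of the second exons of the longest coding transcripts of all protein-coding genes were wholly inside a peak. The closest pair by sequence, Nfic and Nfix, had 0% and 100% of the exon covered. The exon was chosen after seeing the peaks, and a link between its sequence and the peaks was not tested.

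A second set of sequences shows the G-rich DNA inside the peaks. For each gene the 100 bp outside annotated exons in which G most outnumbered C on the coding strand was taken from its peaks, and capitals mark runs of at least 3 G. The stretches are chr4:97644824-97644923 (plus strand, intron 3 of Nfia-001), chr4:82179596-82179695 (minus strand, Nfib, upstream of the start of Nfib-001), chr10:80868318-80868417 (minus strand, intron 7 of Nfic-001) and chr8:87285768-87285867 (minus strand, intron 2 of Nfix-001).
Nfia: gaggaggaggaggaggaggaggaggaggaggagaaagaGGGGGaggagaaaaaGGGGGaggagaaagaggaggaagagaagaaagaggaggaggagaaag
Nfib: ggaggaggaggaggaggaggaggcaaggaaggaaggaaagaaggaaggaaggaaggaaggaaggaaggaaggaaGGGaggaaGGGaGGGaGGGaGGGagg
Nfic: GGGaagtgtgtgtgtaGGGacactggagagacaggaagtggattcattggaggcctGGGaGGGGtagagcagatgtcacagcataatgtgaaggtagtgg
Nfix: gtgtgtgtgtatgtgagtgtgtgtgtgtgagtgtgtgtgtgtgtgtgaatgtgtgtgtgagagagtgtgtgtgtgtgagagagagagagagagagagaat
The Nfia stretch held 56 G and 0 C and the Nfib stretch 58 G and 1 C, and both were made of purine repeats. The Nfix stretch, with 47 G and 0 C, was an alternation of G with T that passed into GA repeats and had no run of 3 G. The Nfic stretch was mixed sequence with 43 G and 10 C. All 4 were the extremes of their own gene by construction.

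All 4 NFI genes held R-loop peaks, and they differed in how much of the gene was covered. Nfia held 9 peaks, Nfib 6, Nfix 6 and Nfic 3. Across all protein-coding genes 39.6% held at least 1 peak, and 51.3% did so with 10 kb on each side added. Gene length moves with this share. Nfia and Nfib are 429 kb and 416 kb long, Nfix 100 kb and Nfic 34.8 kb, all longer than the median protein-coding gene of 15.4 kb. Among protein-coding genes of 0.5 to 2 times the same length, the share with at least 1 peak was 66.2% for Nfia, 65.9% for Nfib, 57.8% for Nfix and 49.4% for Nfic.

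Read against genes of similar length, the number of peaks was on the high side for each NFI gene. The genes of similar length were not limited to transcribed genes, and the part of transcription in this was not tested. Of 789 genes of similar length to Nfia, 7.48% held 9 peaks or more, and the median was 1 peak. For Nfib 12.9% of 820 genes held at least 6 peaks. For Nfix 6.81% of 3878 genes did, and for Nfic 13.1% of 6984 genes held at least 3. The plot of gene length and peak number shows the same: the NFI genes sat in the upper part of the cloud at their length and below the highest genes, which reached 30 peaks in the Nfia and Nfib classes, 17 in the Nfix class and 10 in the Nfic class.

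**Figure D1:**
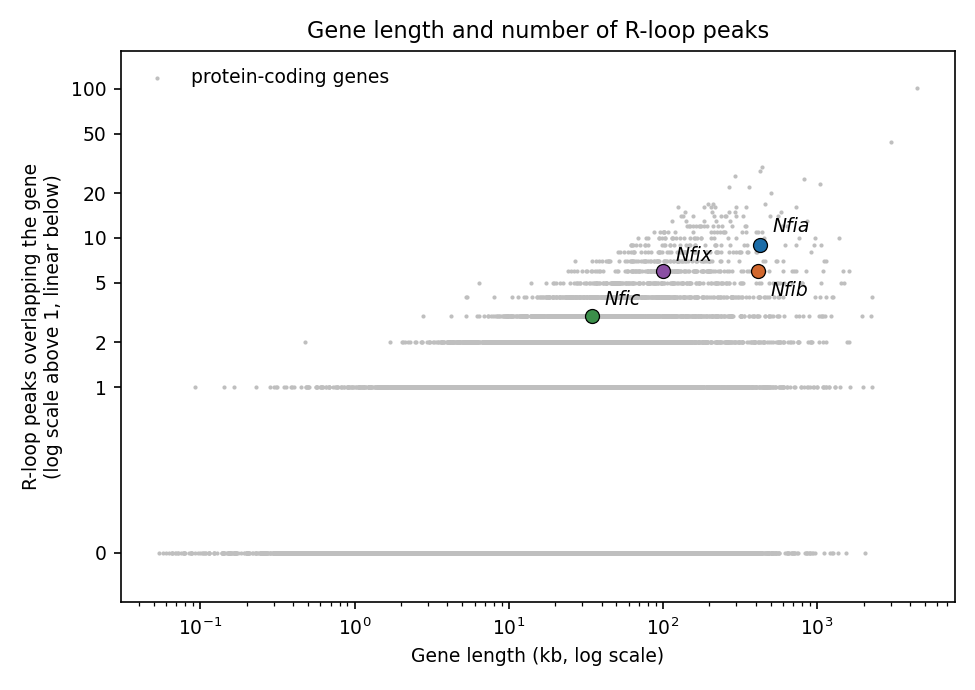
Number of R-loop peaks overlapping a gene (vertical axis, log scale above 1 and linear below) by gene length in kb (horizontal axis, log scale), with each protein-coding gene as a grey point and the 4 NFI genes in colour. Nfia (9 peaks), Nfib and Nfix (6 each) and Nfic (3) lie in the upper part of the points at their length.

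The share of bases in peaks separated the family differently from the peak number. Peaks covered 29.4% of Nfix (29.5 kb) and 23.0% of Nfic (8.00 kb), compared to 4.18% of Nfia (17.9 kb) and 4.01% of Nfib (16.7 kb). Nfia thus had the most peaks, and Nfix, a much shorter gene, the most covered sequence. Of the genes of similar length to Nfix, 67 of 3878 (1.73%) were covered to at least the same extent. The same share was 8.24% for Nfia, 8.90% for Nfib and 9.48% for Nfic. The median gene was covered to 0.615% in the Nfix class, to 0.191% in the Nfia and Nfib classes, and not at all in the Nfic class.

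Nfix stood apart by the width of its peaks. Its 6 peaks were 0.492, 0.700, 6.13, 6.34, 7.77 and 8.12 kb wide, so that 4 of 6 reached 5 kb or more, while 9.85% of all peaks in the list did. No peak in Nfia, Nfib or Nfic reached 5 kb. The 9 Nfia peaks ran from 0.571 to 4.42 kb with a median of 1.66 kb, the 6 Nfib peaks from 1.11 to 4.47 kb with a median of 2.51 kb, and the Nfic peaks were 1.42, 1.59 and 4.99 kb wide. The widest Nfic peak was just under the 5 kb limit, which was chosen after seeing the peaks. Over all 24 peaks the median width was 2.20 kb, compared to 1.32 kb over the whole list, and 21 were at least 1 kb wide. The plot of widths shows the 2 narrow and 4 wide Nfix peaks with nothing between them.

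**Figure D2:**
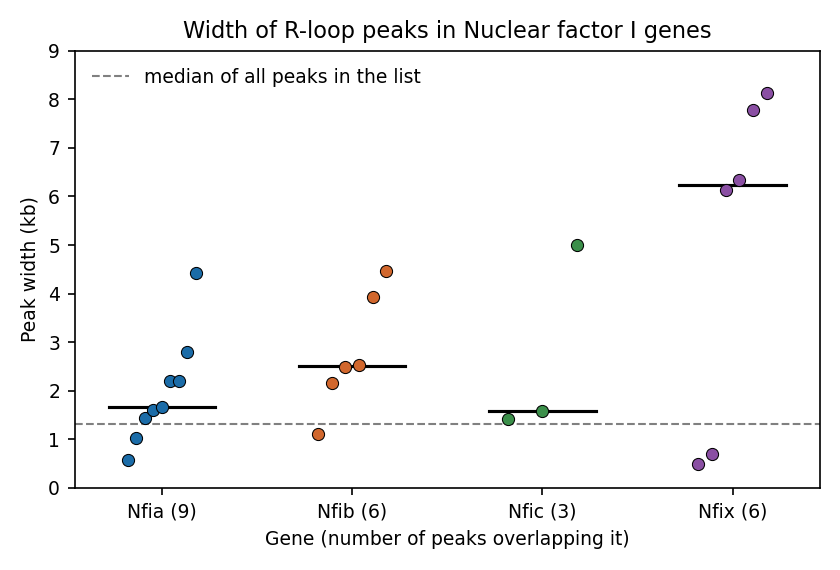
Width in kb of each R-loop peak overlapping Nfia, Nfib, Nfic and Nfix (points, with the number of peaks in parentheses), the median of each gene (black bar) and the median of all peaks in the list (dashed line, 1.32 kb). Only Nfix has peaks above 5 kb, from 6.13 to 8.12 kb.

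Gene starts were examined next, because R-loops are known from promoter regions. The outermost annotated start was outside a peak in all 4 genes, as in most protein-coding genes, of which 14.9% had that start inside a peak. When every start of a coding transcript was counted, each NFI gene had at least 1 start inside a peak, compared to 17.2% of protein-coding genes. A gene with many annotated starts has more ways to meet this rule, and the NFI genes have 4 to 9 distinct coding starts. The end of the longest coding transcript was outside a peak in all 4 genes, again as in most protein-coding genes, of which 11% had it inside.

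In Nfia (ENSMUSG00000028565, chr4:97439425-97868605, plus strand) the main start region was at the edge of a peak. The peak at chr4:97444348-97446551 covered 4 of the 9 distinct coding starts, those of Nfia-002, Nfia-003, Nfia-004 and Nfia-203. The start of Nfia-001 lay 49 bp, that of Nfia-201, Nfia-202 and Nfia-205 31 bp and that of Nfia-204 12 bp outside the same peak edge. The peak took in 338 of the 387 bp of the first exon and 36.7% of the first intron. The starts of Nfia-005 and Nfia-007 were 4923 and 7430 bp from the nearest peak. This peak also overlapped E130114P18Rik, a protein-coding gene on the opposite strand that holds 6 peaks in all. The outermost start of E130114P18Rik, at position 97444769, was inside the same peak. Hybrids of the 2 genes cannot be told apart in the shared bases without strand.

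The other 8 Nfia peaks were intronic and spread along the gene. They lay 83.5, 94.6, 201, 276, 301, 313, 316 and 344 kb from the start of Nfia-001, counted to the midpoint. Intron 2, the longest with 173 kb, held 2 of them and was covered to 1.42%. Introns 9 and 10 were covered to 13.5% and 11.5%. No exon of Nfia-001 other than the first had a base in a peak. The widest Nfia peak, chr4:97785650-97790065, began 88 bp past the end of Nfia-001, and it counts as inside the gene only because Nfia-204 runs on for 83.0 kb. The distance from the first to the last peak was 346 kb, with gaps of 0.651 to 105 kb.

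Nfib (ENSMUSG00000008575, chr4:81936077-82351654, minus strand) had its peaks in one group around the start used by most of its transcripts. The peak at chr4:82149726-82153652, 3.93 kb wide, covered 3 of the 4 distinct coding starts and the whole first exon of Nfib-001. These 3 are the starts of 9 of its 10 coding transcripts. The neighbouring peak at chr4:82143558-82146047 covered the whole second exon. A further peak of 1.11 kb lay in intron 2, 41.3 kb from the start of Nfib-001, and exons 3 to 11 had no base in a peak. The remaining start, of Nfib-010, lay 148306 bp from the nearest peak.

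Upstream of the start of Nfib-001, 3 peaks of 2.16, 2.53 and 4.47 kb had their midpoints at -28.2, -17.6 and -6.24 kb from that start, in introns of Nfib-010. All 3 also overlapped Gm11266, an annotated noncoding transcript on the opposite strand (chr4:82153920-82193196). Which of the 2 transcripts the hybrids belong to cannot be told apart in a list without strand. The 200 kb of the gene upstream of Nfib-001 were covered to 5.57%, and the span of Nfib-001 itself to 2.57%. With the limits of Nfib-001 in place of the whole gene, 3 peaks remained. The 6 peaks spanned 71.1 kb of a gene of 416 kb. A flanking peak of 2.56 kb lay 3844 bp beyond the 3' end of the gene.

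Nfic (ENSMUSG00000055053, chr10:80858931-80893750, minus strand) showed the opposite layout, with all peaks in its 3' part. When the gene was split into 10 equal parts in the direction of transcription, parts 1 to 6 had no base in a peak and parts 7 to 10 were covered to 40.9%, 45.6%, 79.8% and 63.5%. The peak at chr10:80870069-80871491 held exons 4, 5 and 6 of Nfic-001. The next at chr10:80866913-80868501 held exon 8, and the last at chr10:80860201-80865190 covered 74.0% of the last exon. The start of Nfic-001 was 4805 bp from the nearest peak. The only coding start inside a peak was that of Nfic-009, a transcript of 6.87 kb that begins within the gene. A flanking peak of 100 bp, the narrowest of the 26, lay 987 bp upstream of the outermost start.

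Nfix (ENSMUSG00000001911, chr8:87223775-87324243, minus strand) was covered around its first exons and near its 3' end. The peak at chr8:87293305-87301075, 7.77 kb wide, covered the starts of Nfix-001, Nfix-004 and Nfix-201 and the first and second exons of Nfix-001. The peak at chr8:87235208-87241545, 6.34 kb wide, held exons 9 and 10. Exons 3 to 8 and the last exon had no base in a peak. The widest peak of the family, 8.12 kb at chr8:87305742-87313863, had its midpoint at -12.5 kb from the start of Nfix-001, inside the longer transcripts Nfix-002, Nfix-003 and Nfix-005. The starts of these transcripts were 10380, 10176 and 10060 bp from the nearest peak.

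Of the 10 equal parts of Nfix, parts 2 to 4 were covered to 80.8%, 74.3% and 61.7%, and part 9 to 63.1%. The 26.9 kb of the gene upstream of Nfix-001 were covered to 46.0%, and the span of Nfix-001 to 25.0%. Intron 2 of Nfix-001 held 3 peaks or parts of peaks and was covered to 21.0% of its 43.8 kb. Intron 2 was covered to 1.42% of 173 kb in Nfia, 1.47% of 115 kb in Nfib and 0% of 10.6 kb in Nfic. Lyl1 and G430095P16Rik, protein-coding genes on the opposite strand that overlap Nfix, held no peak. The maps of the 4 genes show these layouts side by side: scattered in Nfia, grouped at the start in Nfib, in the 3' part in Nfic, and in wide blocks at the start and near the 3' end in Nfix.

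**Figure D3:**
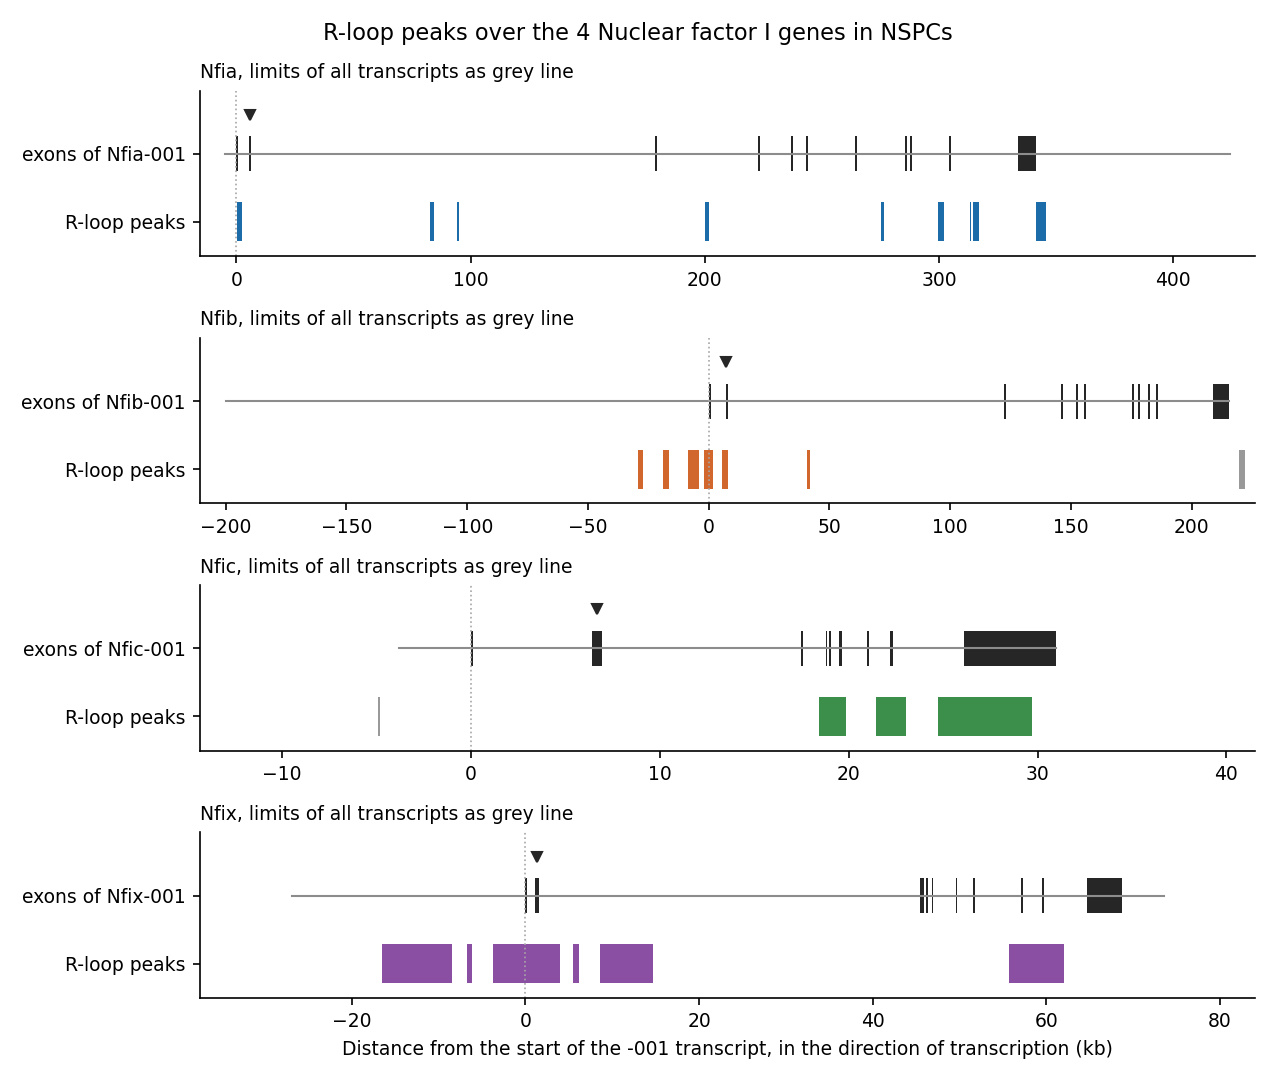
R-loop peaks drawn to scale along each NFI gene, as distance in kb from the start of its -001 transcript in the direction of transcription. Coloured boxes are peaks overlapping the gene, grey boxes are the peaks in the flanks of Nfib and Nfic, black boxes are exons of the -001 transcript (the shortest widened to be visible), the triangle marks exon 2 and the grey line the limits of all transcripts. The exon 2 triangle stands over a peak in Nfib and Nfix and over a bare stretch in Nfia and Nfic.

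The difference between the paralogs was also put in numbers by exon. Such numbers still depend on intron length, since 1 peak can take in several exons where introns are short. Introns 4 and 5 of Nfic-001 are 0.105 and 0.426 kb long, and 1 peak covered exons 4, 5 and 6. Nfia-001, Nfib-001 and Nfix-001 have 11 exons and Nfic-001 has 9. Nfia had only its first exon in a peak, to 87.3%. Nfib and Nfix both had exons 1 and 2 covered, and Nfix in addition exons 9 and 10. Nfic had no base of exons 1 to 3 or of exon 7 in a peak, while exons 4, 5, 6 and 8 were covered whole. Exons were counted separately in each transcript.

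**Figure D4:**
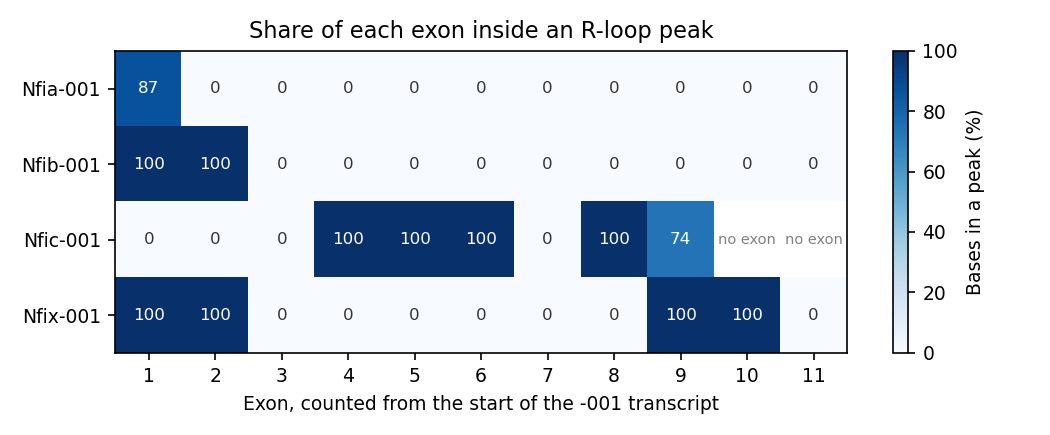
Percent of the bases of each exon of the -001 transcript that lie in an R-loop peak (colour scale and printed value), by gene (rows) and exon counted from the transcript start (columns). Covered exons are exon 1 in Nfia (87.3%), exons 1 and 2 in Nfib, exons 1, 2, 9 and 10 in Nfix, and exons 4, 5, 6 and 8 and 74.0% of exon 9 in Nfic.

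Most of the covered sequence was intronic. Introns made up 87.8% of the 72.1 kb in the 24 peaks, and coding sequence 2.69%. The intron share of the whole genes was not set beside these values, so they show no preference for introns. No exon base was found in 16 of 24 peaks, compared to 46.4% of the peaks that lie in 1 protein-coding gene of any length. These were 8 of 9 in Nfia, 4 of 6 in Nfib and 4 of 6 in Nfix, while each of the 3 Nfic peaks held coding sequence.

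Base composition was compared next. The median G+C content of the 24 peaks was 48.5%, close to the 48.7% of all peaks in the list. It followed the gene. The 3 Nfic peaks lay between 54.4% and 57.3%, in a gene of 57.7% G+C, and the 6 Nfix peaks between 49.3% and 56.3%, in a gene of 53.1%. Nfia and Nfib are poorer in G+C, with 41.3% and 41.7%. In both, the peak at the start region was the richest, with 57.7% in Nfia and 59.0% in Nfib, and the other peaks lay between 42.0% and 49.5%.

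These start peaks also had a high content of CpG. The ratio of observed to expected CpG was 0.867 in the Nfia start peak and 0.817 in the Nfib start peak, and 0.625 in the 4.47 kb peak upstream of Nfib-001. These 3 of 24 peaks reached 0.6, a share near the 10.8% of peaks in 1 protein-coding gene. The Nfix peak over the starts of Nfix-001, Nfix-004 and Nfix-201 had a ratio of 0.287, and the Nfic peak over the start of Nfic-009 one of 0.494. The ratio was taken over the whole peak, which is 7.77 kb wide in Nfix, compared to 2.20 kb in Nfia and 3.93 kb in Nfib. Nfic-009 begins within its gene, and the Nfia peak also holds the start of E130114P18Rik on the opposite strand. The CpG ratio close to each start was not measured, so the 4 values do not compare the starts themselves.

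GC skew, which is (G - C)/(G + C) counted on the coding strand, was near 0 in most NFI peaks. Its median was 0.00933, compared to 0.0390 over all peaks in 1 protein-coding gene, and 13 of 24 peaks had a positive value, compared to 66.1%. Skew was positive in 7 of 9 Nfia peaks, 3 of 6 in Nfib, 1 of 3 in Nfic and 2 of 6 in Nfix. The highest values were 0.411 in the 0.571 kb peak at chr4:97757423-97757993 in intron 10 of Nfia, 0.247 in the Nfia peak with the purine repeat shown above, and 0.220 in the 0.492 kb peak at chr8:87303485-87303976 of Nfix. The 4 peaks over a coding start had values of -0.0299 in Nfia, 0.0414 in Nfib, -0.0752 in Nfic and -0.0142 in Nfix. The plot of composition shows these 4 peaks along the zero line. Skew was taken over the whole peak, and the Nfia peak also holds the start of E130114P18Rik on the opposite strand. Skew close to each start was not measured, so the 4 values do not describe the starts themselves.

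**Figure D5:**
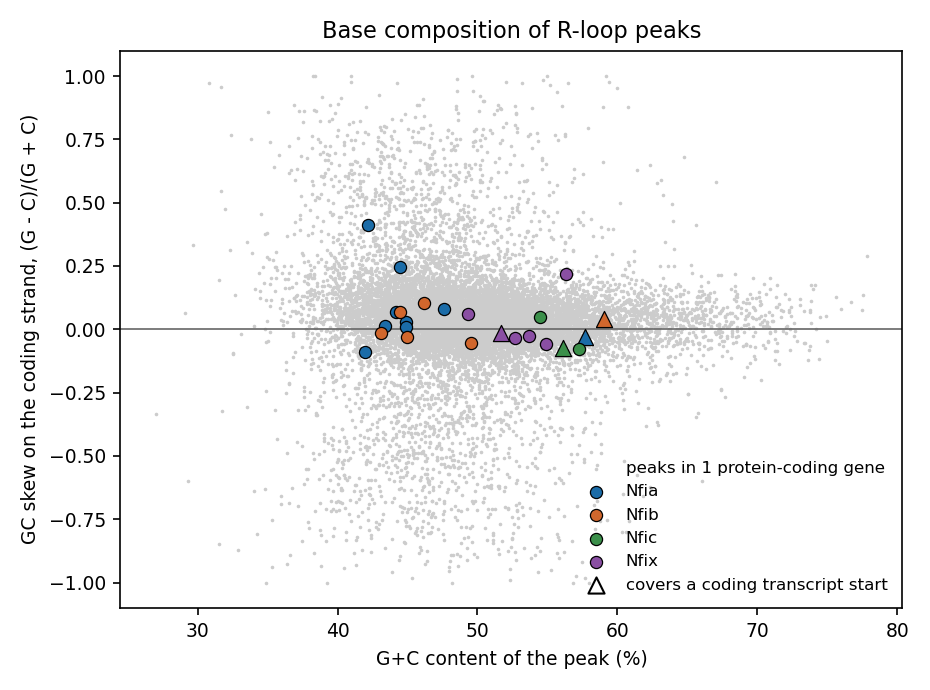
GC skew on the coding strand by G+C content in percent, for all R-loop peaks in 1 protein-coding gene (grey points) and for the peaks of the 4 NFI genes (coloured), with triangles for peaks over a coding transcript start. Skew is taken over the whole peak and not close to a start. The triangles lie within 0.08 of zero skew, and the highest NFI value, 0.411, belongs to a narrow Nfia peak of 42.2% G+C.

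A quadruplex-type pattern, 4 runs of at least GGG separated by loops of 1 to 7 bases, was found on the coding strand in 13 of 24 peaks, compared to 27.4% of peaks in 1 protein-coding gene. On the template strand 11 of 24 peaks held it, compared to 25.0%. The NFI peaks are wider than the typical peak, and wider peaks have more room for any pattern. The Nfib start peak held 4 matches on the coding and 6 on the template strand. The Nfix peak over the start of Nfix-001 held 2 and 8, and the peak over the last exon of Nfic 2 and 7.

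Long runs of purines or pyrimidines, which can adopt triple-stranded structures, were found in 2 of the 24 peaks, one in Nfia and one in Nfix. Runs of at least 100 bp occurred in 9.76% of all peaks. The Nfia peak at chr4:97644485-97646085 held a purine run of 281 bp on the coding strand (chr4:97644823-97645103), part of which is the Nfia sequence shown above. The Nfix peak at chr8:87235208-87241545 held a pyrimidine run of 302 bp (chr8:87239166-87239467) and a purine run of 108 bp (chr8:87240391-87240498), both outside exons and on either side of exon 9. The first 100 bp of the pyrimidine run are printed on the coding strand (minus strand, chr8:87239368-87239467), since the run is the longest of the family and lies between the exons 9 and 10 that the peak covers. Runs of 3 or more C would be in capitals, and none occurs.
Nfix: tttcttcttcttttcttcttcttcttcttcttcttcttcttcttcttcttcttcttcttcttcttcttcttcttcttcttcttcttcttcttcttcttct
The Nfix run is a repeat of TTC, with its purines on the template strand, while the Nfia run has its purines on the coding strand.

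NFI proteins bind the palindrome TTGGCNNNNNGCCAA, and the genes were searched for it on both strands. It was found 3 times in Nfia and once in Nfib, and not in Nfic or Nfix. None of these matches was inside a peak. Over the whole list 35 peaks (0.158%) held the full site. A match is a description of letters and not a binding site.

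Because the DNA was cut before precipitation, the edges of peaks were compared with the sites of EcoRI (GAATTC), HindIII (AAGCTT), BsrGI (TGTACA), SspI (AATATT) and XbaI (TCTAGA). Of the 48 edges of the 24 peaks overlapping an NFI gene, 16 (33.3%) lay within 100 bp of a site, compared to 28.7% of all 44264 edges. These were 6 of 18 edges in Nfia, 6 of 12 in Nfib, 1 of 6 in Nfic and 3 of 12 in Nfix. Within 20 bp the NFI share was 4.17%, or 2 of 48 edges, compared to 7.72% of all edges. The flanking peaks were left out of these counts, and the one of Nfib had both edges 6 bp from a site. One edge of the Nfib start peak lay 5 bp and one edge of the 6.13 kb Nfix peak 0 bp from a site.

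Genes with the most similar layout were named by the mean absolute difference in percent covered over the 10 equal parts, among protein-coding genes of 0.5 to 2 times the length. For Nfia these were Limch1 (1.33 percentage points, 7 peaks) and Gbe1, the glycogen branching enzyme (2.58 points, 2 peaks). For Nfib they were Kcnj6, an inwardly rectifying potassium channel (3.18 points), and Ksr2, a scaffold of Ras signalling (3.21 points), each with 1 peak. Nfic was closest to the DNA ligase gene Lig3 (6.98 points) and to Pomgnt1 (7.26 points), a glycosyltransferase gene, and Nfix to Faah (13.5 points), which encodes fatty acid amide hydrolase, and Bin1 (14.9 points). This measure grows with coverage: a gene without any peak would differ by 4.18 points from Nfia, 4.01 from Nfib, 23.0 from Nfic and 29.4 from Nfix, so the values are not comparable between the NFI genes. Kcnj6 and Ksr2 were only slightly nearer to Nfib than such a gene. Between the NFI genes themselves the difference was 7.44 points for Nfia and Nfib and 21.7 to 39.8 points for the other pairs, an order that moves with their coverage.

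Genes that act with or downstream of NFI factors in glial fate were described from a list of 30 genes. Of these, 23 held at least 1 peak, which is 76.7%, compared to 39.6% of protein-coding genes. The list was chosen with earlier results of these data known, so the 2 shares are not an independent comparison. The median length was 13.1 kb in the list and 15.4 kb over protein-coding genes. The most peaks were found in Zbtb20, a transcription factor of astrocyte development (10 peaks in 767 kb), Slc1a3, the astroglial glutamate transporter GLAST (9 peaks, 32.6% covered), Zcchc24, a gene downstream of SOX9 and NFIA (5 peaks, 56.2% covered), and the receptor gene Notch1 (4 peaks). Notch2, Rbpj and Stat3, which carry Notch and cytokine signals, held 3 peaks each. Sox9, the partner of NFIA, held 2 peaks that covered 68.6% of the gene, and its start was inside a peak.

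The 7 genes of the list without a peak were Hes5 and Hey1, effectors of Notch, the astrocyte and radial glia genes Gfap and Fabp7, both known NFI targets, Apcdd1 and Mmd2, which like Zcchc24 are known downstream of SOX9 and NFIA, and the stress-response factor Atf3. Gfap and Hes5 had 1 peak each within 10 kb. The genes downstream of SOX9 and NFIA were thus split, with 5 peaks in Zcchc24 and none in Apcdd1 or Mmd2. Set beside these genes, Nfia matched Slc1a3 with 9 peaks, but Nfia is 429 kb long and Slc1a3 76.6 kb. Slc1a3 was covered to 32.6%, compared to 4.18% of Nfia and 29.4% of Nfix.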

How the data were processed

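R-loops had been mapped by DRIP-seq. Per the labels and the study's methods, reads were adapter trimmed (Trim Galore 0.6.6), aligned to NCBI37/mm9 and freed of duplicates before a Hidden Markov Model defined the peaks. The authors deposited 1 peak list, whose values are positions in base pairs without counts, signal or score, so that depth is unknown. The rule for combining replicates is not given in the sources used here.

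Positions were converted to 1-based and compared with the mm9 sequence and GENCODE M1 genes, with an overlap of at least 1 bp. Similar length meant 0.5 to 2 times the length of the gene. Because 1 list was analysed, no test was made. The members and gene lists were chosen with earlier results of these data known, and the second exon, the 5 kb limit and the purine and pyrimidine runs were chosen after seeing the peaks. Named genes were the 4 NFI genes, genes sharing their peaks, the 2 most similar layouts for each, and, of the 30 glial fate genes, those with the most peaks or with none, to which Sox9, the marker genes named in the opening, and Lyl1 and G430095P16Rik, which overlap Nfix, were added after their values were seen. Map2 was not matched, and for Zbtb20, with 2 entries, the longer was used. Overlap counting was tested on simulated data. Python 3.11.15, numpy 2.4.6, scipy 1.17.1 and matplotlib 3.10.9 were used.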

Additional observations from a re-analysis of the deposited data

How the results depend on the processing

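Of 77 alternatives for 24 results, 59 were labelled the same and 18 moved. The limit was 1.5 times, the binomial interval or the spread, depending on the result. Several shares of genes were labelled moved although they changed by less than 1.5 times. No alternative was labelled reversed, but a start that changed from outside to inside a peak was counted as moved. With the limits of the longest coding transcript, Nfib held 3 peaks in place of 6 and was covered to 2.57% in place of 4.01%. Counting any coding transcript start turned the start of Nfia, Nfib, Nfic and Nfix from 0 to 1 inside a peak, and a distance of 1 kb did so for Nfic (1). With 50 kb on each side, Nfix had 14 peaks in place of 6. The share of genes with a peak was 39.6%, and 31.8% with peaks of at least 1 kb, 34.9% with midpoints inside the gene and 27.1% over all annotated genes. The share of genes of similar length with at least as many peaks became 4.82% for Nfia, 6.34% for Nfib, 7.37% for Nfic and 8.12% for Nfix with peaks of at least 1 kb, and for Nfic 11.1% with midpoints and 12.0% over all annotated genes. Peak edges within 20 bp of a restriction site were 4.17% in place of 33.3%, as a shorter distance must give fewer. Over all edges the share was 28.7% within 100 bp and 7.72% within 20 bp, so the NFI share went from above it to below it. The NFI share within 20 bp rests on 2 of 48 edges and leaves out the flanking peaks. The cause of the other changes was not tested. No paired analysis was possible because each group holds 1 sample and only the DRIP sample has a file. The list gives no depth, so a missing peak is no evidence that R-loops are absent.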
